A study of Homo sapiens with 29 samples.

Results

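The comparison described here is between EndoC-βH1 cells of batch 3 and EndoC-βH1 cells of batch 2, both kept in medium from HEK293 cells that were given no carboxyl ester lipase (CEL). The libraries were chosen by their labels alone, as empty-vector (EV) medium in batch 3 (3 libraries) and EV medium in batch 2 (3 libraries), which is 6 of the 29 libraries of the series. EndoC-βH1 is a human insulin-secreting cell line, made from fetal pancreas by introducing the large T antigen of simian virus and telomerase. In the series, the line was grown for 10 days, with daily renewal, in medium that HEK293 cells had conditioned for 3 hours. HEK293 is a human embryonic kidney line, and these cells stably carried an empty vector, wild-type CEL (WT) or mutant CEL (MUT). The conditioned medium was filtered and set to equal protein before use, per the labels' protocols. CEL is a digestive enzyme made by the acinar cells of the pancreas, and certain mutations of its gene underlie MODY8, a hereditary form of diabetes. Both groups compared here therefore share the cell line, the EV HEK293 source, the conditioning and the 10 days of culture, and differ in the batch that the labels give. The labels do not say whether a batch was a thaw, a passage, a date or a sequencing run, and batch is the only difference they give between the 2 groups. Nor do they state that the 3 libraries of a group were separate cultures, so the p-values below rest on a spread between libraries that may be technical. The question is how far the state of the β-cell line itself moved from one batch to another when no CEL was added.

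The 3 batch 3 libraries held 31.8 to 35.1 M estimated counts and the 3 batch 2 libraries 33.7 to 39.5 M. Levels below are CPM, counts relative to the library total, scaled across all 29 libraries. Of the 10 β-cell markers listed (insulin, amylin, PDX1 and others), none was under 1 CPM, and their summed level was 15130 to 16290 CPM in batch 3 and 14150 to 15840 CPM in batch 2. Of the 6 acinar markers, 3 (CTRB1, PRSS1 and PNLIP) had no count in any of the 6 libraries. CPA1 and CEL were above 1 CPM in all 6. The acinar markers summed to 37.22 to 42.66 CPM in batch 3 and 28.05 to 31.83 CPM in batch 2. The 4 ductal markers, mostly KRT19, summed to 48.98 to 51.72 CPM in batch 3 and 52.17 to 54.9 CPM in batch 2. All 3 endothelial markers and 3 of the 4 mesenchymal markers were under 1 CPM in all 6 libraries. The 6 HEK293 markers summed to 21.5 to 24.1 CPM in batch 3 and 21.1 to 21.9 CPM in batch 2. Mitochondrially encoded transcripts took 4.29 to 4.64% of the counts in batch 3 and 4.80 to 5.25% in batch 2. In bulk RNA, fewer cells of a type and less RNA per cell cannot be told apart.

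As background, a β-cell adjusts its transcription to its supply of glucose, lipid and growth signals. Glucose metabolites activate the factors MondoA and ChREBP, which bind the carbohydrate response element of TXNIP and its relatives. Growth signals and depolarization induce immediate early genes within minutes, and cytokine or innate immune signals act through NF-κB and interferon-regulated factors. Falling sterol activates SREBP factors, which drive cholesterol and fatty acid synthesis, while sterol excess activates LXR, which drives efflux. The secretory load is carried by prohormone convertases, granins and the chaperones of the endoplasmic reticulum.

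Across the transcriptome, batch 3 and batch 2 differed at 8375 of 20076 genes tested (edgeR's quasi-likelihood test, Benjamini-Hochberg adjusted p under 0.05), or 41.7% of them. Of these, 4193 genes (20.9% of those tested) were higher in batch 3 and 4182 genes (20.8%) were lower. Most differences were small. The median size among genes that passed was 0.35 on the log2 scale, and the quartiles of all tested genes were -0.20 and 0.22. Over 2-fold higher were 369 genes (1.84%), and over 2-fold lower were 404 (2.01%). The 3 batch 3 levels did not overlap the 3 batch 2 levels at 52.4% of the genes tested. Batch held 65.6% of the variance of log2 levels among the 6 libraries. Neither of these 2 shares would be nil without a batch difference, and that baseline is not given here. Because 20.9% and 20.8% of all genes moved in each direction, a gene list is described below by its counts beside these shares. The 49 lists hold 1052 different genes, of which 903 passed the filter on low counts and were tested.

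**Figure D1:**
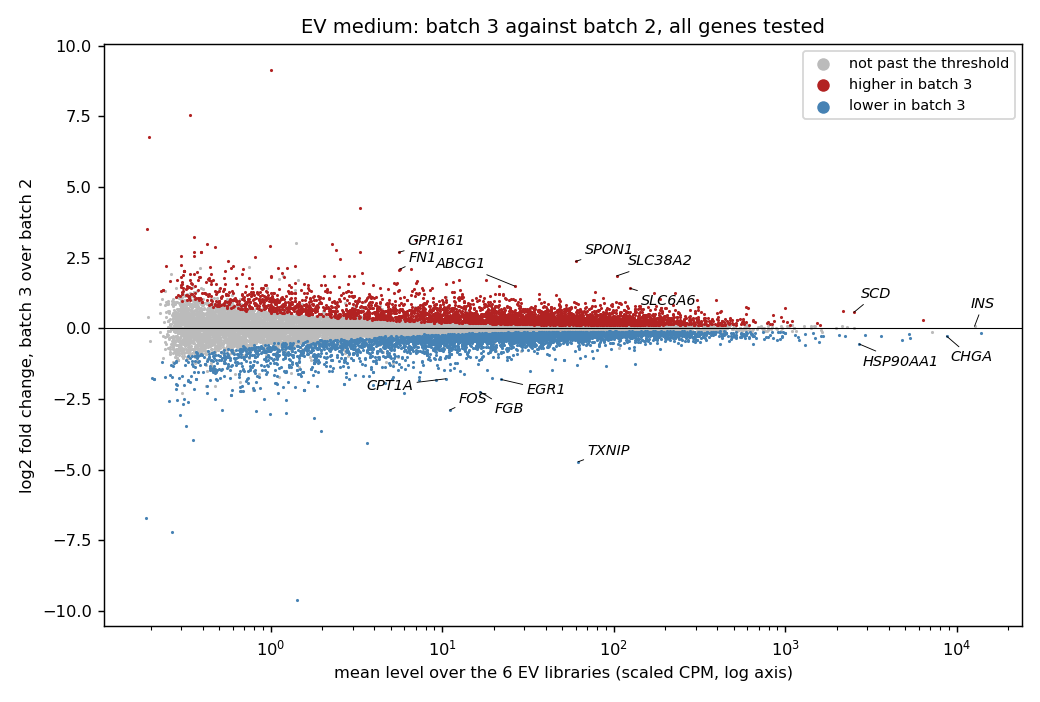
Log2 fold change of batch 3 over batch 2 in EV medium (vertical axis) against the mean level over the 6 EV libraries in scaled CPM (horizontal log axis), with 1 point per gene tested, coloured by whether it passed an adjusted p of 0.05. TXNIP has the largest change among genes of at least 5 CPM, at -4.72. The 6 entries with a larger change were at 0 in every library of 1 batch and averaged at most 2.82 CPM in the other. The higher and lower clouds are of like size.

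The largest change among genes of at least 5 CPM was in the glucose-responsive arrestin TXNIP, which binds thioredoxin and restrains glucose uptake. TXNIP had 4.65, 3.27 and 5.68 CPM in the 3 batch 3 libraries, against 125, 115 and 118 CPM in the 3 batch 2 libraries. Every batch 3 library lay far below every batch 2 library, a 26.4-fold lower level (log2 fold change -4.72, SE 0.12, adjusted p = 2.97e-09). The EV libraries of batch 1 lay between, at 36.3 to 39.5 CPM. The gene lies at chr1:145992435-145996600 (GRCh38, as are all positions below, from GENCODE 29), on the minus strand. Its paralog ARRDC4, an arrestin under the same glucose-responsive control, moved the same way, with 34.5, 33.7 and 38.4 CPM in batch 3 and 90.6, 82.7 and 88.5 CPM in batch 2 (log2 fold change -1.29, adjusted p = 2.05e-07). ARRDC3, another member of the family, had 22.7, 20.8 and 25.8 CPM in batch 3 and 65.9, 60.5 and 65.8 CPM in batch 2 (log2 fold change -1.47, adjusted p = 3.85e-07). The groups did not overlap for any of the 3 arrestins. In batch 1, ARRDC3 was lower than in either, at 6.47 to 8.04 CPM.

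The TXNIP promoter is shown because this gene had the largest change. It is the RefSeq sequence (GRCh38.p14) of chr1:145996530-145996829, minus strand, from 250 bases before to 50 after the start, 5′ to 3′. Capitals mark the only match in it, on either strand, to the paired E-box layout of a carbohydrate response element, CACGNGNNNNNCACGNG, which lies 88 to 72 bases before the start. This layout is in 0.057% of the 35116 promoter windows of the same length. Of the 20 genes that hold it, 16 were tested, with a median log2 fold change of -0.07. Of these 16, 5 were lower in batch 3, TXNIP itself among them, and 0 were higher. Over all genes tested, 20.8% were lower and 20.9% higher. The ARRDC4 window held an E-box, CACGTG, but no match to the paired layout. The match in TXNIP is a description of the letters and no measure of binding.
TXNIP: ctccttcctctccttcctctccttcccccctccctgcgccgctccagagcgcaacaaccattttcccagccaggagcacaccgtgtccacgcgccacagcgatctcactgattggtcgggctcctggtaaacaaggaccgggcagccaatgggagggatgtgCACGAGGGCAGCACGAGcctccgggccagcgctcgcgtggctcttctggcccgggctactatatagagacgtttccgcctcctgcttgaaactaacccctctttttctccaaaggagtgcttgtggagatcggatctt

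Other genes of glucose handling went both ways. Of the 13 tested genes for glucose uptake, phosphorylation and the ATP-sensitive potassium channel, TXNIP and ARRDC4 among them, 5 were higher and 5 lower, with a median of -0.01. The glucose transporter SLC2A2 (log2 fold change -0.01, adjusted p = 0.967) and the sulfonylurea receptor ABCC8 (-0.09, adjusted p = 0.213) did not pass. PFKFB2, which makes the activator of phosphofructokinase, rose in batch 3, with 251, 254 and 246 CPM in batch 3 and 126, 125 and 120.4 CPM in batch 2 (log2 fold change 1.02). Higher as well were G6PC2, the islet glucose-6-phosphatase subunit (0.55), and pyruvate carboxylase PC (0.59).

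Several genes of fatty acid oxidation were lower in batch 3. CPT1A, which admits long-chain fatty acids into mitochondria, had 3.87, 5.17 and 5.07 CPM in batch 3 and 16.6, 16.7 and 15.6 CPM in batch 2. That is a 3.45-fold lower level without overlap (log2 fold change -1.78, adjusted p = 9.78e-07), and batch 1 was higher than both at 35.2 to 37.5 CPM. PDK4, the kinase that shuts pyruvate dehydrogenase, fell by 1.14 on the log2 scale, and the acyl-CoA dehydrogenase ACADVL by 0.49. CPT2, the partner of CPT1A, fell by 0.29. Over the list of lipid droplet and fatty acid oxidation genes, 10 of 21 were lower and 4 higher, with a median of -0.10, and 2 were higher without batch 3 replicate 1 or 2.

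Genes of lipid synthesis were more often higher than lower. Of the 26 genes of cholesterol synthesis and other SREBP2 targets, 17 were higher in batch 3 and 3 lower, with a median of 0.21. Lanosterol synthase LSS led them, with 528, 522 and 481 CPM in batch 3 and 312, 359.6 and 328 CPM in batch 2 (log2 fold change 0.62, adjusted p = 1.66e-05). The sterol carrier STARD4 (0.57), the reductase DHCR7 (0.44) and mevalonate kinase MVK (0.42) were also higher. SREBF2, which encodes the driving factor, did not pass at 0.04 (adjusted p = 0.508). Of the 16 fatty acid synthesis genes, 8 were higher and 2 lower, with a median of 0.14. The factor SREBF1 had 405, 392 and 372 CPM in batch 3 and 212, 248 and 229 CPM in batch 2, without overlap (log2 fold change 0.77, adjusted p = 4.72e-06). Its classical targets FASN, fatty acid synthase (0.70), ACACA, acetyl-CoA carboxylase (0.77), SCD, stearoyl-CoA desaturase (0.57), and FADS2, a desaturase of polyunsaturated fatty acids (0.40), were higher with it. The elongase ELOVL6 was lower (-0.37).

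Some sterol efflux genes were higher as well. ABCG1, a cholesterol exporter and LXR target, had 38, 40.4 and 38.8 CPM in batch 3 and 15, 13.9 and 12.9 CPM in batch 2 (log2 fold change 1.49, adjusted p = 1.64e-07). Its relative ABCA1 was higher by 1.29, at levels of no more than 1.49 CPM. Of the 10 LXR targets and efflux genes, 5 were higher and 2 lower. The 2 lysosomal exporters of cholesterol were both higher. NPC2 had 117, 119 and 117 CPM in batch 3 and 57.7, 53.5 and 56.3 CPM in batch 2 (log2 fold change 1.08, adjusted p = 8.52e-08) and NPC1 differed by 0.42. The wider list of 37 autophagy and lysosome genes had 9 higher and 5 lower (3 lower without batch 2 replicate 3 or batch 3 replicate 2) and a median of 0.02, and CTSL, a cathepsin, was among the lower (-0.29).

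Several immediate early genes, which answer growth factors and depolarization, were lower in batch 3. FOS, a subunit of AP-1 (chr14:75278774-75282230, plus strand), had 2.36, 2.21 and 3.28 CPM in batch 3 and 14.5, 17 and 26.8 CPM in batch 2, a 7.43-fold lower level (log2 fold change -2.89, SE 0.23, adjusted p = 7.09e-06). EGR1, a zinc-finger factor induced by the same signals, had 9.97, 7.84 and 11.6 CPM in batch 3 and 19.6, 28.2 and 54.7 CPM in batch 2 (log2 fold change -1.81, SE 0.32, adjusted p = 0.00104). Neither gene overlapped between batches, although the 3 batch 2 libraries were spread widely among themselves, and without EV batch 2 replicate 3, the highest for both, the log2 fold changes were -2.59 and -1.29. KLF10 had 5.88, 6.69 and 6.99 CPM in batch 3 and 19.6, 20.3 and 20.8 CPM in batch 2 (log2 fold change -1.63), with little spread. JUNB, another AP-1 subunit (-0.98), DUSP1, a phosphatase that turns off MAP kinases (-0.98), and BTG2, an antiproliferative gene (-0.70), were also lower. JUND, the constitutive AP-1 subunit, was higher (0.57). Of 21 immediate early genes tested, 9 were lower and 4 higher, with a median of -0.13. The median was -0.07 without batch 2 replicate 3 and -0.25 without batch 3 replicate 1, with 9 lower and 3 higher in each.

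The EGR1 promoter is shown because it carries the serum response elements known for this gene. It is the RefSeq sequence (GRCh38.p14) of chr5:138465229-138465528, plus strand, 5′ to 3′. Capitals mark the 2 CArG boxes found on either strand, the core that serum response factor binds. A CArG box is in 1.29% of the 35116 windows. Of the 185 tested genes with one, 43 were higher and 41 lower in batch 3.
EGR1: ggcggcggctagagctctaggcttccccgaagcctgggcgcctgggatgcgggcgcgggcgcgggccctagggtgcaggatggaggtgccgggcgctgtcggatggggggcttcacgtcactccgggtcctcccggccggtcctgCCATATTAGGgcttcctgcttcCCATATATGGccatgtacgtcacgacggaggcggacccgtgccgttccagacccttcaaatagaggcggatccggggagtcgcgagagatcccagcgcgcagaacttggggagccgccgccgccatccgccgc

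Feedback genes of the ERK pathway, which growth factor signalling induces to restrain itself, were in part higher. Of 14 tested, 7 were higher and 3 lower, with a median of 0.27, and 1 was lower without batch 2 replicate 3 or batch 3 replicate 1. The ETS factor ETV4 had 13.7, 13.7 and 12.5 CPM in batch 3 and 7.49, 6.26 and 6.14 CPM in batch 2 (log2 fold change 1.01), and the inhibitor SPRY4 was higher by 0.56. Of 16 cyclic AMP and CREB targets, which include FOS and DUSP1, 6 were higher (3 without batch 2 replicate 3) and 4 lower. The insulin receptor substrate IRS2 was among the higher (0.55) and the G protein regulator RGS2 among the lower (-0.47).

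Inflammatory genes were lower in batch 3 as a group. Of 15 NF-κB feedback and inflammatory targets, 13 were lower and 0 higher, with a median of -0.76. NFKBIA, the inhibitor that NF-κB induces against itself, had 51.6, 54.3 and 57 CPM in batch 3 and 94.8, 97.6 and 94.6 CPM in batch 2, without overlap (log2 fold change -0.81, adjusted p = 8.52e-07). TNFAIP2, a cytokine-induced gene, had 5.69, 7.46 and 6.59 CPM in batch 3 and 19, 20 and 17.5 CPM in batch 2 (log2 fold change -1.51). The RNase ZC3H12A (-1.49), the apoptosis inhibitor BIRC3 (-1.80), the adaptor TNIP1 (-0.78) and the subunits RELB (-0.99) and NFKB2 (-0.60) were lower too. The summed level of the list was 317 to 319 CPM in batch 3 and 492 to 511 CPM in batch 2. PTGS2, the inducible cyclooxygenase and outside that list, moved the opposite way, with 513, 516 and 549 CPM in batch 3 and 269, 258 and 272 CPM in batch 2 (log2 fold change 0.99, adjusted p = 1.5e-07).

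Interferon-stimulated genes were lower as well, with 17 of 24 lower, 3 higher and a median of -0.45. DDX60, a helicase of antiviral sensing, had 1.48, 2.07 and 2.25 CPM in batch 3 and 7.78, 7.16 and 7.18 CPM in batch 2 (log2 fold change -1.92, adjusted p = 4.22e-06). The oligoadenylate synthetases OAS1 (-1.03) and OAS3 (-0.59), PARP9 (-0.70) and IFI35 (-1.04) were lower. USP18, a brake on the interferon receptor, was higher (0.53), but it has near-identical copies in the genome and its counts are uncertain. Of 14 tested genes on the list for class I antigen presentation, 8 were lower and 0 higher, with a median of -0.58. Among them, the trimming peptidase ERAP2 had 4.21, 3.04 and 4.71 CPM in batch 3 and 14.3, 15.1 and 13.5 CPM in batch 2 (log2 fold change -1.84). The immunoproteasome subunit PSMB10 (-1.30) and the peptide transporter TAP1 (-1.15) were also lower. So was CD74 (-0.57), a chaperone of class II molecules.

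The promoters of NFKBIA and DDX60 are shown as one example from each group. Both are RefSeq sequences (GRCh38.p14), 5′ to 3′ on the gene's own strand, which is the minus strand for both. NFKBIA is chr14:35404700-35404999 and its capitals mark 1 κB site, read on the opposite strand, a motif in 5.91% of the 35116 windows. DDX60 is chr4:168318703-168319002 and its capitals mark 2 matches to the interferon-stimulated response element GAAANNGAAA, a motif in 3.57% of windows. Both strands were searched. Over all tested genes that hold them, 258 of 1106 were higher and 262 lower for the κB site, and 109 of 476 were higher and 130 lower for the response element.
NFKBIA: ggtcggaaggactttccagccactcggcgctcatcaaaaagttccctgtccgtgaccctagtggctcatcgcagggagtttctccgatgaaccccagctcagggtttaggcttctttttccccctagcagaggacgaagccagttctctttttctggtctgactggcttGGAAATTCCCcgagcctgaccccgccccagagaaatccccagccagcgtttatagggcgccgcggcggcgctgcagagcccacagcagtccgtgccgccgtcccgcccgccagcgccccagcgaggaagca
DDX60: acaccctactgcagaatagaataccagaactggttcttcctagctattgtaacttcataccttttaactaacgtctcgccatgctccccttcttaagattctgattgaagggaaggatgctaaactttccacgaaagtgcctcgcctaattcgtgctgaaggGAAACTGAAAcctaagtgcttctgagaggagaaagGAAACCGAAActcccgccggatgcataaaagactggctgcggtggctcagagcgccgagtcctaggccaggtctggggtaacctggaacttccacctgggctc

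**Figure D2:**
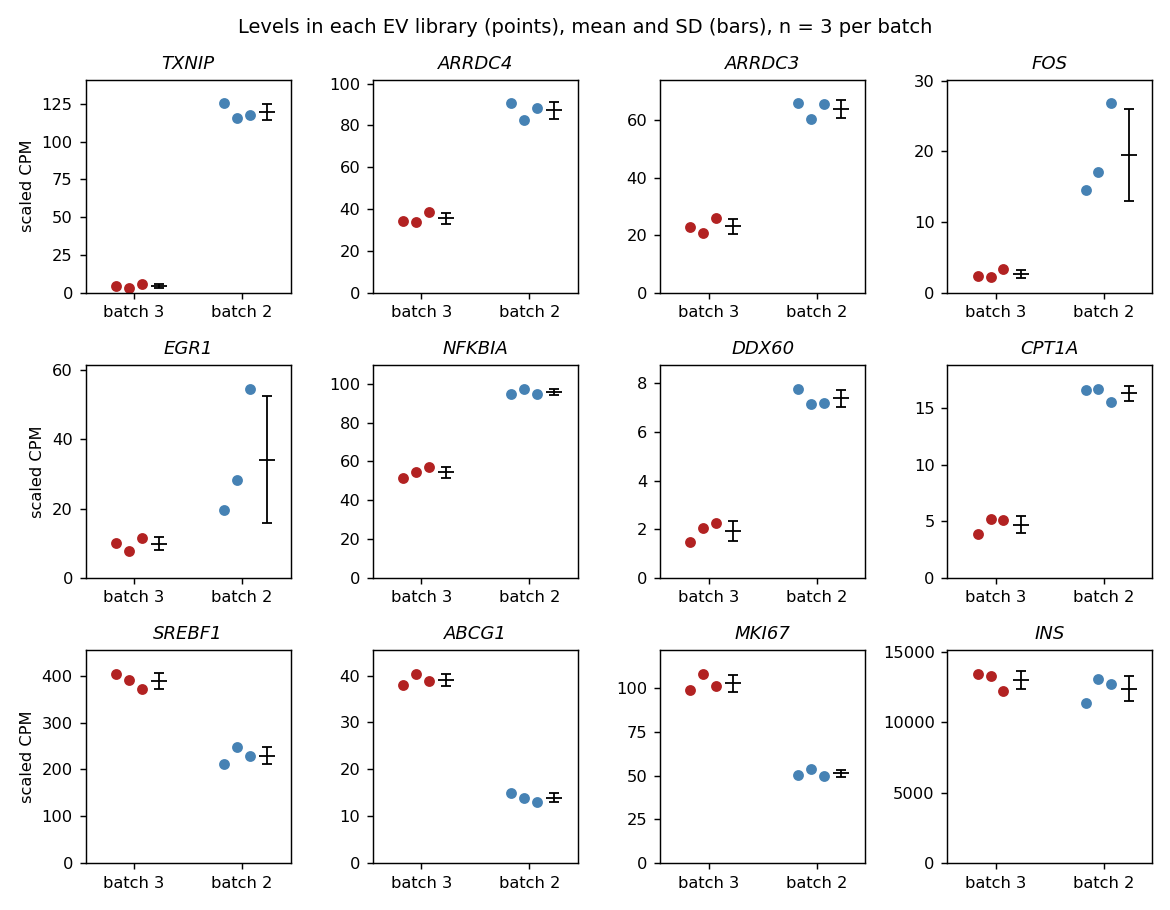
Scaled CPM in each EV library for 12 genes, batch 3 left (red) and batch 2 right (blue), with the mean and SD of the 3 libraries in black and axes from 0. TXNIP, the arrestins, FOS, EGR1, NFKBIA, DDX60 and CPT1A are lower in all 3 batch 3 libraries, SREBF1, ABCG1 and MKI67 are higher in all 3, and INS overlaps.

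Transcripts of the protein synthesis and energy machinery were lower in batch 3, by small amounts. Of 41 cytosolic ribosomal protein genes, 40 were lower and 0 higher, with a median of -0.27. RPL3, a core protein of the large subunit, had 827, 816 and 776 CPM in batch 3 and 1016, 1086 and 1065 CPM in batch 2 (log2 fold change -0.38), RPS14 differed by -0.43 and RPL10 by -0.42. The one that did not pass was RPS9 (-0.42, adjusted p = 0.355), a gene with near-identical entries among which estimated counts can be split. All ribosomal protein genes together took 2.43 to 2.52% of the scaled counts in batch 3 and 2.91 to 3.07% in batch 2. With offsets for GC content and gene length, an alternative chosen after seeing the data, 34 of the 41 were lower, and across all genes the fold change had a Spearman correlation of 0.17 with transcript length.

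The 31 proteasome subunits had 23 lower and 0 higher (median -0.17), for example PSMA3, a subunit of the core (-0.37). Without batch 2 replicate 3, 12 were lower, and without batch 3 replicate 2, 13 were. Of 43 nuclear-encoded subunits of oxidative phosphorylation, 24 were lower and 3 higher (median -0.14), with 14 lower without batch 2 replicate 3 and 15 without batch 3 replicate 2. ATP synthase subunits ATP5MC1 (-0.55) and ATP5F1B (-0.28) were among the lower. Of the 13 mitochondrially encoded subunits, 10 were lower and 1 higher (median -0.22). Cytochrome oxidase subunit MT-CO3 had 4081, 4019 and 4323 CPM in batch 3 and 5736, 5559.7 and 5171 CPM in batch 2 (log2 fold change -0.40), and MT-ND1 did not pass (0.02, adjusted p = 0.728).

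Of 19 glycolytic enzymes, 13 were lower and 1 higher (median -0.24). The phosphofructokinases PFKP, with 34.3, 31.2 and 30.5 CPM in batch 3 and 50.1, 52 and 50.2 CPM in batch 2 (log2 fold change -0.66), and PFKL (-0.43) led, and GAPDH (-0.25) and PGK1 (-0.26) followed. LDHA, lactate dehydrogenase, was the member that was higher (0.44), and its entry has the same counts as another entry of the table. The hypoxia targets as a whole were balanced, with 6 of 19 higher and 4 lower, while NDRG1 had 14.2, 16.5 and 16.6 CPM in batch 3 and 31.9, 31.4 and 31.8 CPM in batch 2, without overlap (adjusted p = 1.85e-06).

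Stress proteins were mostly lower too. Of 21 heat shock proteins, 13 were lower and 1 higher (median -0.24). Their log2 fold changes ran from -1.37 to 2.99, so the largest change on the list was upward. With DESeq2, or with all 29 libraries in 1 fit, 14 were lower and 0 higher. HSP90AA1, the inducible HSP90, had 2151, 2194 and 2196 CPM in batch 3 and 3413, 3007 and 3206 CPM in batch 2 (log2 fold change -0.55, adjusted p = 7.41e-06). HSPA8, the constitutive HSP70, differed by -0.43, and the small chaperone HSPB1 by -1.37 at 1.67 to 6.24 CPM. Of 26 NRF2 targets and antioxidant genes, 15 were lower and 4 higher (median -0.23). The quinone reductase NQO1 had 10.2, 10.9 and 11.2 CPM in batch 3 and 23.4, 22.7 and 22.2 CPM in batch 2 (log2 fold change -1.07). Superoxide dismutase SOD1 (-0.50) and the glutamate-cysteine ligase subunit GCLM (-0.31) were lower, whereas the peroxiredoxin repair enzyme SRXN1 was higher (0.64). Of 11 metallothioneins and zinc transporters, 5 were higher and 4 lower, and the zinc exporter SLC30A1 was lower (-0.84).

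**Figure D3:**
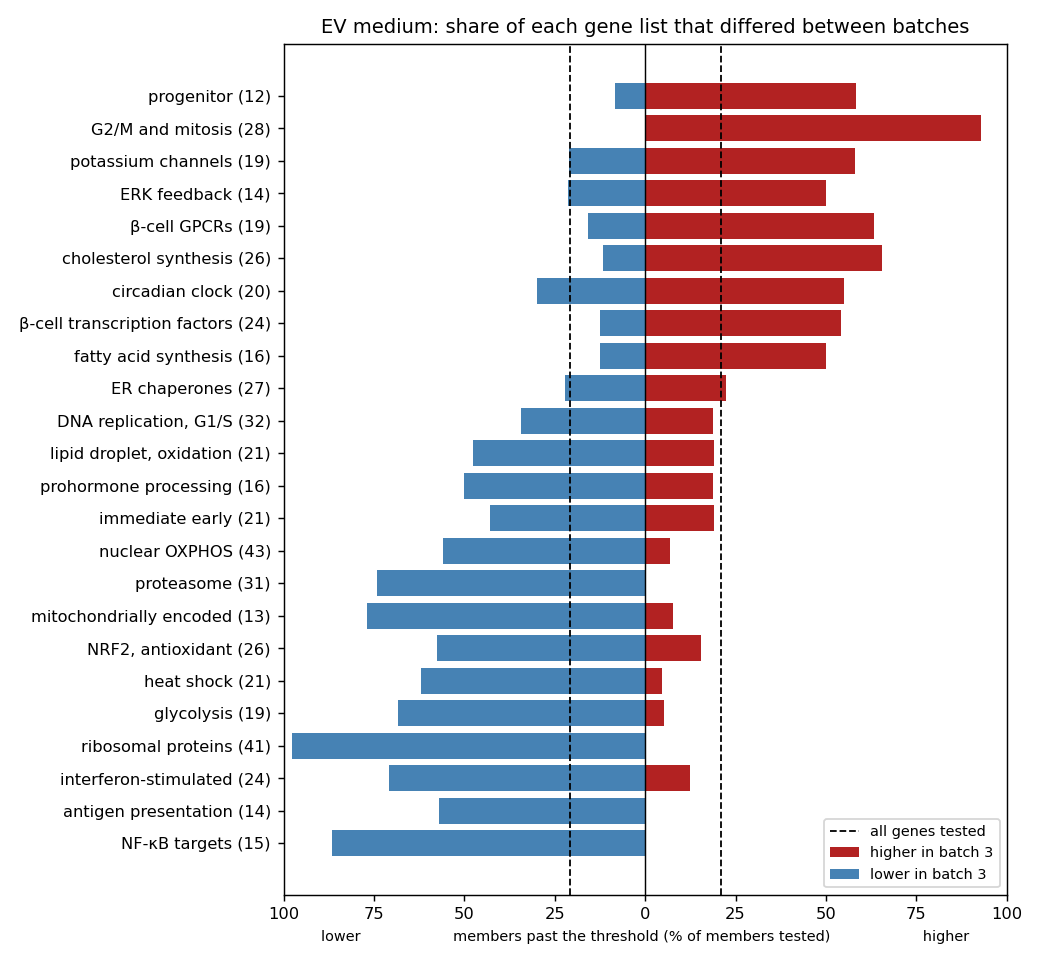
Share of the tested members of 24 gene lists that were higher (red, right of 0) or lower (blue, left of 0) in batch 3 than in batch 2 in EV medium, ordered by the median log2 fold change, with the number tested in brackets. Dashed lines mark the shares over all genes tested, 20.9% higher and 20.8% lower. NF-κB targets, ribosomal proteins and antigen presentation reach far left of the line with no member to the right, and the G2/M list reaches far right with none to the left.

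Mitotic genes were higher in batch 3. Of 28 G2/M genes, 26 were higher and 0 lower, with a median of 0.30. MKI67, the proliferation antigen (chr10:128096659-128126385, minus strand), had 98.8, 108 and 101 CPM in batch 3 and 50.6, 53.7 and 49.9 CPM in batch 2 (log2 fold change 1.01, adjusted p = 3.37e-07). The kinetochore protein CENPF had 112, 116 and 115 CPM in batch 3 and 61.8, 61.9 and 62.4 CPM in batch 2 (log2 fold change 0.89). The spindle protein ASPM (0.86), the mitotic factor FOXM1 (0.71), topoisomerase TOP2A (0.65) and the checkpoint kinase BUB1B (0.56) were higher. The 2 that did not pass were PTTG1, securin (0.05, adjusted p = 0.538), and HMMR (0.07, adjusted p = 0.292). Batch 1 was above batch 2 for MKI67, at 125 to 164 CPM.

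DNA replication genes did not rise with them. Of 32 G1/S genes, 6 were higher and 11 lower, with a median of -0.03. The helicase subunit MCM6 was lower (-0.25), while the factor E2F1 (0.30) and ribonucleotide reductase RRM2 (0.23) were higher. Replication-dependent histones gave 7 of 13 higher and 2 lower, led by H2BC5 (1.61) and H2AC6 (1.60). These transcripts mostly lack a poly(A) tail and have near-identical copies, so their levels in an mRNA library are uncertain. The cell-cycle inhibitor CDKN1A had 28.6, 30 and 28.6 CPM in batch 3 and 60.6, 63 and 60.3 CPM in batch 2 (log2 fold change -1.07, adjusted p = 1.64e-07). Among 25 BCL2 family and apoptosis genes, 8 were higher and 7 lower. The proapoptotic BMF was higher (0.95).

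Among β-cell genes, insulin did not pass the test. INS, at chr11:2159779-2161341 (minus strand), had 13454, 13311 and 12237 CPM in batch 3 and 11395, 13090.2 and 12694 CPM in batch 2, with overlap (log2 fold change 0.07, SE 0.05, adjusted p = 0.307). IAPP, which encodes amylin and is secreted with insulin, was higher, with 149, 149 and 158 CPM in batch 3 and 79.5, 75.3 and 85.2 CPM in batch 2 (log2 fold change 0.93, adjusted p = 6.08e-07), and only 5.58 to 6.31 CPM in the EV libraries of batch 1. Of 24 β-cell transcription factors, 13 were higher and 3 lower, with a median of 0.16. PDX1, the master factor of the pancreas, had 506, 482 and 514 CPM in batch 3 and 453, 425 and 448 CPM in batch 2 (log2 fold change 0.19). ISL1 (0.34), RFX3 (0.41), SOX11 (0.68) and ONECUT2 (0.88), of which SOX11 and ONECUT2 are also genes of immature endocrine cells, were higher. MAFA, a factor of mature β-cells, was lower (-0.19, adjusted p = 0.00576), as was NKX6-1 (-0.16).

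Of 16 genes for insulin, amylin and prohormone processing, 8 were lower (5 without batch 3 replicate 1) and 3 higher (median -0.10). With the offsets for GC content and length, 7 were lower and 6 higher (median -0.05). SCG5, the chaperone of the convertase PCSK2, had 82.4, 82.4 and 91.9 CPM in batch 3 and 121, 109.7 and 149.7 CPM in batch 2 (log2 fold change -0.56), and the granins CHGB (-0.34) and CHGA (-0.27) were lower. PCSK2 itself was higher (0.28). In the exocytosis list, 8 of 22 were higher and 5 lower, and with the offsets 8 were higher and 8 lower. The vesicle SNARE VAMP2 had 120.4, 115 and 121 CPM in batch 3 and 169, 161 and 166 CPM in batch 2 (log2 fold change -0.47), while the priming factor UNC13A was higher (0.58) and the monoamine transporter SLC18A2 too (1.59), at up to 5.71 CPM.

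Excitability and receptor genes leaned to batch 3. Of 19 potassium channels other than the ATP-sensitive channel, 11 were higher and 4 lower (median 0.27). KCNK3, a background channel, was higher (0.52), and KCNMA1, the large calcium-activated channel, had 33.4, 32.2 and 35.5 CPM in batch 3 and 55.9, 56.5 and 54.5 CPM in batch 2 (log2 fold change -0.72). Of 14 calcium channel subunits, 6 were higher and 1 lower, including CACNA2D1, an auxiliary subunit (0.55), and CACNA1H, a T-type pore (0.39). With the offsets for GC content and length, 5 calcium channel subunits were higher and 3 lower (median 0.05). With them, 8 of the potassium channels were higher and 4 lower (median 0.15). Of 19 G protein-coupled receptors, 12 were higher and 3 lower (median 0.23). Their log2 fold changes ran from -3.06 to 1.03, so the largest change among these receptors was downward. Against a fold of 1.5, 0 of them were higher and 1 lower. The incretin receptor GIPR had 188, 179 and 174 CPM in batch 3 and 134, 140.1 and 126 CPM in batch 2 (log2 fold change 0.44), and the somatostatin receptor SSTR2 differed by 0.47. FFAR4, a receptor of long-chain fatty acids, was lower (-0.69).

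Genes of immature and neuroendocrine cells were in part higher. Of 12 progenitor genes, 7 were higher and 1 lower (median 0.49). With DESeq2, 5 were higher and 1 lower. With a stricter filter on low counts, 8 were tested, of which 5 were higher and 1 lower (median 0.26). SOX4 had 120.5, 127 and 132 CPM in batch 3 and 68.7, 66.4 and 74.6 CPM in batch 2 (log2 fold change 0.86) and HES6, a Notch-related factor of endocrine differentiation, had 125, 128 and 117 CPM in batch 3 and 67.5, 72.8 and 72.6 CPM in batch 2 (0.80). The neuronal list was mixed, with 7 of 18 higher and 4 lower, but STMN2, a microtubule regulator of neurons, had 410.1, 408 and 409.7 CPM in batch 3 and 208, 193 and 208 CPM in batch 2 (log2 fold change 1.02, adjusted p = 9.45e-08), and DCX was higher (0.63). Of 12 hormones and regulators of other islet cells, 4 were higher and 2 lower. Of the 4 α-cell markers, 3 were higher and 0 lower. These 4 summed to 1635 to 1686 CPM in batch 3 and 1465 to 1477 CPM in batch 2. The higher ones were TTR (0.18), IRX2 (0.47) and GCG (1.38), the last at no more than 1.67 CPM. SST, somatostatin, had 136, 132 and 127 CPM in batch 3 and 144, 151 and 149 CPM in batch 2 (log2 fold change -0.17, adjusted p = 0.00819), and its δ-cell factor HHEX differed by -0.72. In the EV libraries of batch 1, SST was 14.2 to 16.4 CPM. Of 9 genes that β-cells keep low, 3 were higher and 3 lower.

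The secretory stress genes were nearly balanced. Of 27 chaperones of the ATF6 and IRE1 arms, 6 were higher and 6 lower (median -0.01). Without batch 3 replicate 1, 3 were higher, and without batch 3 replicate 2, 3 were higher and 3 lower. HSPA5, the main chaperone (BiP), did not pass (0.08, adjusted p = 0.0863). The secreted factor MANF was higher (0.34), and calreticulin CALR (-0.23) and the factor XBP1 (-0.25) were lower. Of 20 genes of endoplasmic reticulum-associated degradation, 3 were higher and 5 lower (3 without batch 2 replicate 3 or batch 3 replicate 1). Of 34 PERK and ATF4 targets and amino acid supply genes, 11 were higher and 14 lower (median -0.02). ATF4 itself did not pass (0.06, adjusted p = 0.212), DDIT3 (CHOP) was higher (0.27, adjusted p = 0.00573), and the serine synthesis enzymes PHGDH (-0.75) and PSAT1 (-0.65) were lower. CEBPB fell by 1.06 on the log2 scale, and cystathionine synthase CBS had 26.3, 23.4 and 20.8 CPM in batch 3 and 10.7, 11.5 and 11.8 CPM in batch 2 (1.06).

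Transporters had some of the largest differences. SLC38A2, which imports small neutral amino acids, had 157, 168 and 163 CPM in batch 3 and 46.4, 43.3 and 45.7 CPM in batch 2 (log2 fold change 1.86, SE 0.04, adjusted p = 2.83e-09). SLC6A6, the taurine transporter, had 177, 186 and 181 CPM in batch 3 and 67.3, 68.5 and 68.2 CPM in batch 2 (log2 fold change 1.42, adjusted p = 5.26e-09). For both, the 6 libraries formed 2 tight, separate groups. The efflux transporter SLC47A1 went the other way (-1.82).

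Several matrix and developmental genes stood at the upper end. SPON1, a secreted matrix protein (chr11:13962689-14267884, plus strand), had 96.3, 104 and 100.5 CPM in batch 3 and 20, 18.8 and 19.6 CPM in batch 2, a 5.16-fold higher level (log2 fold change 2.37, adjusted p = 1.09e-09). Fibronectin FN1 had 8.71, 9.7 and 9.05 CPM in batch 3 and 1.87, 2 and 2.56 CPM in batch 2 (2.09), the laminin subunit LAMB2 had 19.7, 19.8 and 18.3 CPM in batch 3 and 4.72, 6.32 and 6.55 CPM in batch 2 (1.72), and the collagen COL1A1 differed by 1.29. Beside these, the 4 mesenchymal markers, COL1A1 among them, summed to 4.71 to 5.12 CPM in batch 3 and 2.03 to 2.55 CPM in batch 2, COL3A1 and PDGFRB stayed under 1 CPM, and the part of such cells in these changes was not tested. Of 6 tested mesenchymal and endothelial genes, 3 were higher and 1 lower. Of 23 adhesion and matrix genes of β-cells, 10 were higher and 3 lower (median 0.23), the higher including LAMC1 (0.45) and E-cadherin CDH1 (0.35). The median was 0.06 without batch 3 replicate 3, and without batch 2 replicate 1 it was 0.12 with 5 lower. The orphan receptor GPR161, a regulator of hedgehog signalling in cilia, had 9.34, 10.6 and 8.99 CPM in batch 3 and 1.34, 1.71 and 1.45 CPM in batch 2 (2.69). The T-box factor TBX1 (2.10) and the Wnt antagonist DACT1 (1.66) were also among the 20 highest. Of 13 TGF-β feedback and YAP targets, 6 were higher and 4 lower.

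At the lower end stood genes of varied function. The fibrinogen chain FGB had 5.82, 5.66 and 5.8 CPM in batch 3 and 28.1, 27.3 and 26.8 CPM in batch 2 (log2 fold change -2.24, adjusted p = 6.15e-09), with 28.8 to 29.1 CPM in batch 1. The major vault protein MVP (-1.51), the epithelial ETS factor EHF (-2.27), the lipoxygenase ALOX15 (-1.73), the guanylate-binding GTPase GBP3 (-1.46) and the guidance ligand SEMA3C (-1.42) were among the 20 lowest. The lysosomal glycoprotein CD68 had 51.2, 50.4 and 52 CPM in batch 3 and 126, 134 and 127 CPM in batch 2 (-1.33), and the long noncoding RNA DRAIC 10.2, 9.65 and 9.14 CPM in batch 3 and 26.9, 27.5 and 26.6 CPM in batch 2 (-1.48).

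CEL itself (chr9:133061978-133071861, plus strand) had counts in all 6 EV libraries, and where these counts come from was not tested. It had 10.7, 13.5 and 7.29 CPM in the batch 3 libraries and 3, 4.12 and 3.4 CPM in the batch 2 libraries, so that all batch 3 libraries were higher (log2 fold change 1.59, SE 0.20, adjusted p = 0.000141). In the EV libraries of batch 1 it was 1.49 to 2.42 CPM. Of 5 tested acinar genes, 2 were higher and 1 lower. The higher ones were CEL and CPA1, the carboxypeptidase, with 31.3, 29.1 and 29.9 CPM in batch 3 and 25, 26.1 and 28.4 CPM in batch 2 (0.19, adjusted p = 0.0285), whose call was lost with limma's voom weights and when batch 2 replicate 1 or 2 or batch 3 replicate 1 or 3 was left out (adjusted p 0.0601 to 0.103). The lower one was SPINK1 (-1.54), at under 1 CPM in every library. Of 9 ductal genes, 5 were lower and 3 higher, and 1 was higher with DESeq2 or without batch 2 replicate 1, batch 3 replicate 1 or batch 3 replicate 2. ANXA4 was among the lower (-0.57). Of 7 HEK293 markers in the wider list, 3 were higher and 0 lower, led by SALL1 (1.18). With DESeq2, or without batch 2 replicate 1, 2 or 3 or batch 3 replicate 1 or 2, 2 were higher. With limma's voom weights, 4 were higher and 1 lower. The median was 0.21, and 0.03 without batch 2 replicate 3.

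Circadian, imprinted and nuclear transcripts also differed in part. Of 20 clock genes, 11 were higher and 6 lower (median 0.18). Their log2 fold changes ran from -3.04 to 0.92, so the largest change on the list was downward. Against a fold of 1.5, 2 were higher and 1 lower. The repressor CRY1 had 50.9, 50.2 and 51.8 CPM in batch 3 and 27.8, 25.3 and 28 CPM in batch 2 (log2 fold change 0.92), and BMAL1 (0.49) and RORA (0.89) were higher. Of 9 glucocorticoid receptor targets, 4 were lower and 1 higher, with FKBP5 at -0.36. Of 17 imprinted genes, 6 were higher and 3 lower, and with the offsets for GC content and length 6 were higher and 6 lower. The growth factor IGF2 had 989.8, 1041 and 1049 CPM in batch 3 and 1561, 1633 and 1509.9 CPM in batch 2 (-0.61) and MAGEL2 differed by 0.52. Of 8 nuclear-retained RNAs, 4 were higher and 1 lower (median 0.16), but with the offsets for GC content and length 2 were higher and 5 lower (median -0.15). MALAT1 had 351, 319 and 336 CPM in batch 3 and 499, 486 and 496 CPM in batch 2 (log2 fold change -0.55), and MIAT, also a neuronal noncoding RNA, had 18.5, 17 and 19.3 CPM in batch 3 and 6.92, 7.31 and 7.34 CPM in batch 2 (1.35).

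The same batch comparison can be made in the 2 CEL media with other libraries, which shows whether a batch difference was shared by the cells of all media. In WT medium (3 batch 3 and 3 batch 2 libraries), 3966 of 20038 genes (19.8%) were higher and 3969 (19.8%) lower in batch 3. In MUT medium (3 and 3), 4420 of 19916 (22.2%) were higher and 4275 (21.5%) lower. Of the genes that differed in EV, 3995 were called in the same direction in WT, which is 47.7% of the EV calls and 50.3% of the WT calls, and 520 in the opposite direction. With MUT, 2772 were shared in direction, 33.1% of the EV calls and 31.9% of the MUT calls, and 1536 were opposite. Across genes, the fold changes of EV correlated with those of WT at Pearson's r of 0.52 (19624 genes) and with those of MUT at 0.22 (19567 genes). Genes are not independent replicates, so these correlations are descriptions. In all 3 media, 1934 genes were called in the same direction, 1020 higher and 914 lower.

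TXNIP was among the genes lower in all 3 media, with log2 fold changes of -4.72 in EV, -4.99 in WT and -3.61 in MUT. ARRDC4 (-1.29, -1.57 and -0.97 in EV, WT and MUT), FOS (-2.89, -4.95 and -4.56), CPT1A (-1.78, -1.41 and -1.41) and FGB (-2.24, -2.41 and -2.12) were lower in all 3. SPON1 (2.37, 2.22 and 3.05), ABCG1 (1.49, 1.37 and 1.11), NPC2 (1.08, 1.12 and 0.95), CEL (1.59, 0.98 and 1.09) and MKI67 (1.01, 1.88 and 0.94) were higher in all 3. ARRDC3 differed by 0.02 in WT (adjusted p = 0.854) and 0.10 in MUT (adjusted p = 0.196), and the EV batch difference was lower than that of WT by 1.49 (adjusted p = 2e-06) and than that of MUT by 1.57 (adjusted p = 6.62e-08) on the log2 scale.

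**Figure D4:**
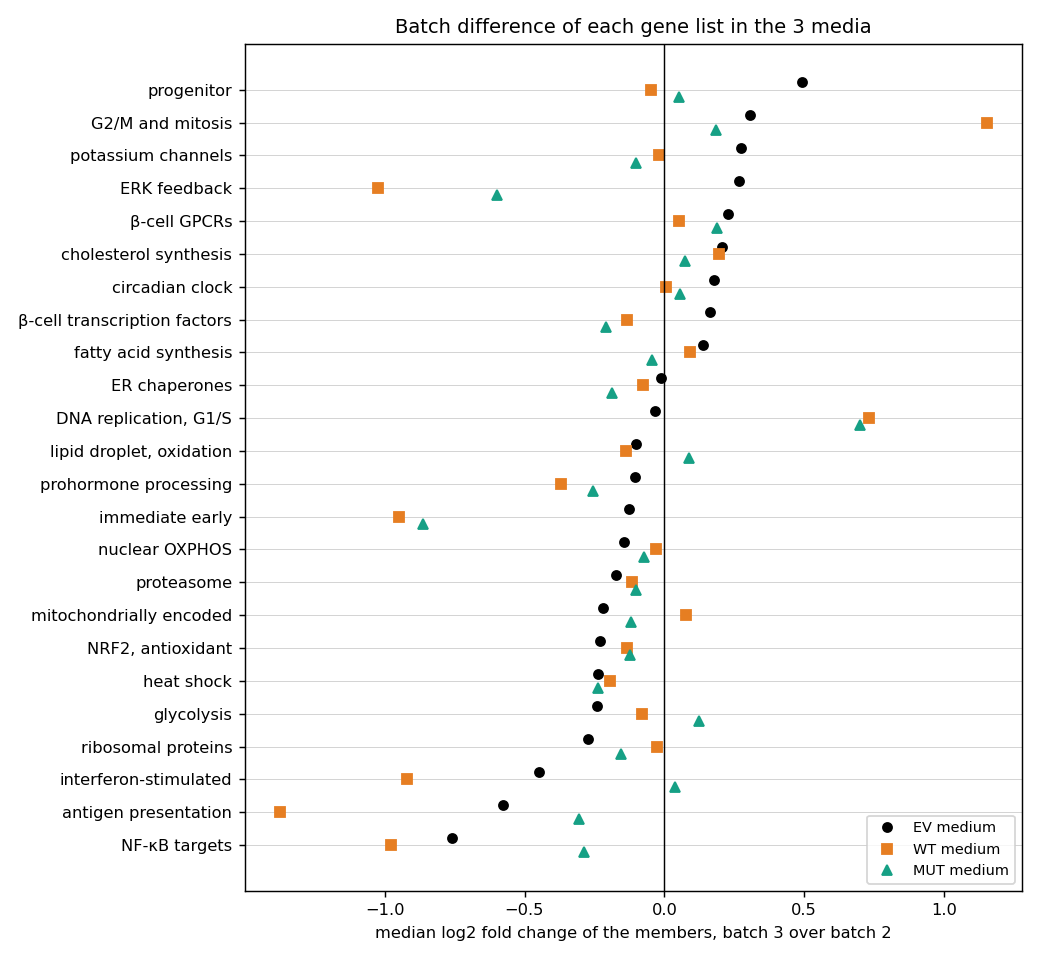
Median log2 fold change of batch 3 over batch 2 for 24 gene lists in EV (circles), WT (squares) and MUT (triangles) medium, each from 3 and 3 libraries. NF-κB targets lie below 0 in all 3 media, whereas the G1/S list lies near 0 in EV and near 0.7 in WT and MUT, and the ERK feedback list lies above 0 in EV and below -0.5 in both CEL media.

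The size of the batch difference was then compared between media directly, as the EV batch difference minus that of the other medium, over 12 libraries each. It differed between EV and WT at 4648 of 20943 genes (22.2%), with 2375 (11.3%) above and 2273 (10.9%) below 0. Between EV and MUT it differed at 7983 of 20865 genes (38.3%), with 4023 (19.3%) above and 3960 (19%) below. The 2 tests share the 6 EV libraries, so their results are not independent. In 1644 genes, the EV difference passed and exceeded that of both other media in its own direction, 875 of them higher and 769 lower. The EV test and the 2 tests between media all use the same 6 EV libraries, so noise in these libraries moves their results together. The 1644 genes are therefore only a description. How many would be found through the shared libraries alone was not tested.

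DNA replication genes differed between media in their batch difference. All 32 G1/S genes were higher in batch 3 in WT (median 0.73) and in MUT (median 0.70), where 6 were higher and 11 lower in EV, and the EV difference was below that of WT at all 32 and below that of MUT at all 32. RRM2 differed by 0.23 in EV, 1.77 in WT and 1.38 in MUT, an EV minus WT difference of -1.54 (adjusted p = 1.05e-07) and an EV minus MUT difference of -1.15 (adjusted p = 1.66e-08). E2F7, a repressor of the same programme, differed by 0.13 in EV and 1.10 in MUT, with an EV minus WT difference of -1.37. The G2/M list had medians of 0.30 in EV, 1.15 in WT and 0.18 in MUT, and the EV difference was below that of WT at all 28 genes. Against MUT, it was above at 11 genes and below at 2.

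ERK feedback genes went opposite ways. Their medians were 0.27 in EV, -1.02 in WT and -0.60 in MUT, with 10 of 14 above 0 in both tests of EV against WT and EV against MUT, and none below. SPRY4 differed by 0.56 in EV, -1.40 in WT and -0.67 in MUT. Immediate early genes had medians of -0.13 in EV, -0.95 in WT and -0.86 in MUT, and EV minus WT was above 0 at 11 of 21 and below at 0, while EV minus MUT was above 0 at 10 and below at 1. β-cell transcription factors had a median of 0.16 in EV, -0.14 in WT and -0.21 in MUT, and EV minus WT was above 0 at 14 of 24 and below at 0, while EV minus MUT was above 0 at 16 and below at 3. INS differed by 0.07 in EV, 0.74 in WT (adjusted p = 0.00273) and 1.01 in MUT (adjusted p = 1.54e-06), with an EV minus MUT difference of -0.94 (adjusted p = 5e-06).

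The ribosomal protein genes had medians of -0.27 in EV, -0.03 in WT and -0.16 in MUT, and the EV difference was below that of WT at 20 of 41 genes and above it at 0. Against MUT, it was below at 10 genes and above at 5. Interferon genes had medians of -0.45 in EV, -0.92 in WT and 0.04 in MUT. IFI6, an antiviral interferon-stimulated gene, gave the smallest p for EV against WT among genes of at least 5 CPM. It had 49.2, 50 and 48.3 CPM in batch 3 and 55.1, 54.4 and 56.5 CPM in batch 2 in EV medium, a log2 fold change of -0.17, against -3.40 in WT and 0.62 in MUT. NF-κB targets had medians of -0.76 in EV, -0.98 in WT and -0.29 in MUT.

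Several of the genes with the smallest p-values of these tests had batch differences of opposite sign in different media. PTGS2 differed by 0.99 in EV, -0.55 in WT and -0.70 in MUT. RAB15, a trafficking GTPase, differed by 1.23, 0.03 and -0.21, and IGFBP5, which binds insulin-like growth factors, by 1.26, 0.00 and -0.20 in EV, WT and MUT. SLC38A2 differed by 1.86, 0.68 and -0.56, and SLC6A6 by 1.42, 0.28 and -0.29. CD68 differed by -1.33, -0.44 and 0.57. SCG2, a granin, was no such reversal: it did not pass in EV (0.02, adjusted p = 0.761) and was lower in WT (-0.99) and MUT (-0.93).

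**Figure D5:**
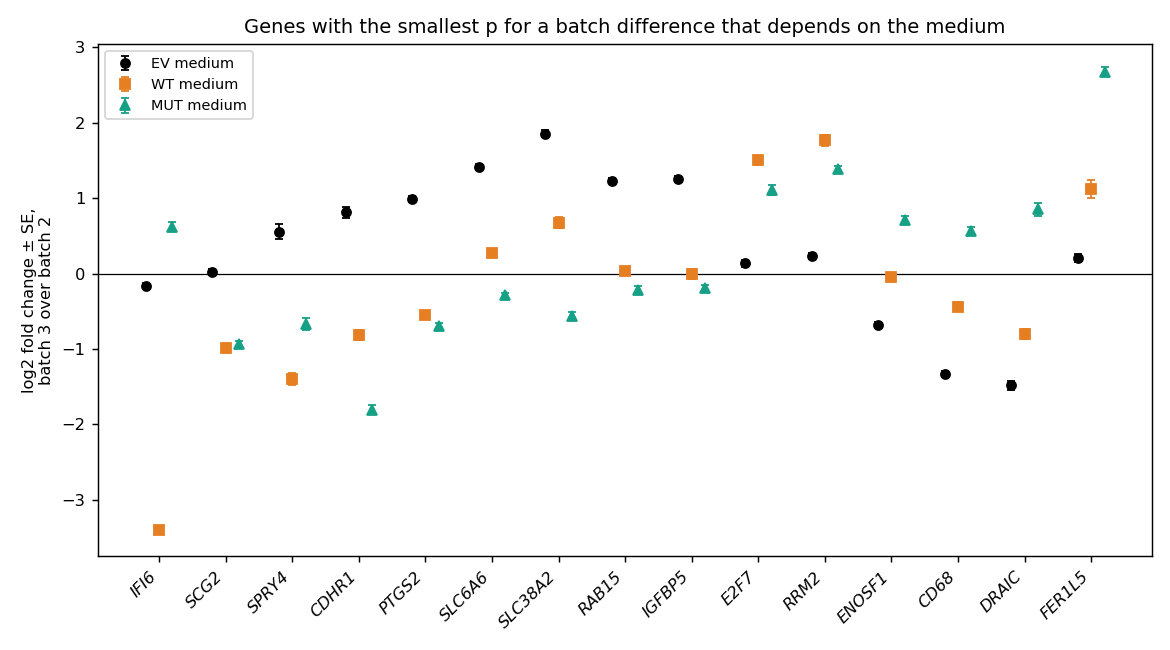
Log2 fold change of batch 3 over batch 2, with SE, in EV (circles), WT (squares) and MUT (triangles) medium for 15 genes described by the tests of EV against WT and EV against MUT. IFI6 is near 0 in EV and at -3.40 in WT, PTGS2 and CDHR1 lie above 0 in EV and below 0 in both others, and RRM2 and E2F7 lie near 0 in EV and above 1 in both others.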

How the data were processed

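mRNA sequencing of EndoC-βH1 cells was compared. The authors deposited a table of estimated counts per gene, and fastp and kallisto are named in the submitters' processing notes. For both, the version, and for the genome its build, is not given in the sources used here. Because kallisto splits reads between near-identical entries, such genes are uncertain. Rounding made whole numbers of the deposited estimated counts. Entries without a symbol held 3.50 to 3.64% of counts and stayed in the fits.

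Batch 3 and batch 2 of EV medium (3 libraries each, 31.8 to 39.5 M counts) were compared with edgeR 4.0.16 (R 4.3.3) after filterByExpr and TMM scaling, with quasi-likelihood tests, Benjamini-Hochberg adjustment over 20076 genes and an adjusted p under 0.05. WT and MUT batches were fitted the same way, and medium-by-batch interactions over 12 libraries. Levels are CPM scaled by TMM over 29 libraries. Alternatives used DESeq2 1.42.0, limma 3.58.1 voom, other scalings, filters and thresholds, a replicate block, and each library left out.

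Members and lists were chosen with earlier results of these data known. Genes are named by a rule: 14 chosen genes, the 20 highest and 20 lowest non-overlapping changes of at least 5 CPM, up to 6 passing and 3 other members of smallest p per list, and the 10 smallest interaction p-values. Some of these genes are not reported here. Positions are from GENCODE 29 and promoters from RefSeq (GRCh38.p14), which held 144 of 175 genes looked up. Figures were drawn with matplotlib 3.10.9.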

Additional observations from a re-analysis of the deposited data

Results flagged for a closer look

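The batch difference was not the same in all media. Its size in EV minus that in WT passed the test at 4648 genes, and in EV minus that in MUT at 7983 genes, in edgeR's quasi-likelihood test of the interaction over 12 libraries each.

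Genes of at least 5 CPM with the smallest p are given here with the difference of the log2 fold changes. For EV minus WT, the batch difference was higher in EV at IFI6 by 3.226, SPRY4 by 1.954, CDHR1, a cadherin-related gene, by 1.629, PTGS2 by 1.53, RAB15 by 1.201, SLC6A6 by 1.14 and SCG2 by 1.002. It was lower in EV at RRM2 (-1.542) and E2F7 (-1.368). For EV minus MUT, it was higher in EV at CDHR1 by 2.621, SLC38A2 by 2.42, SLC6A6 by 1.708, PTGS2 by 1.688, IGFBP5 by 1.455 and RAB15 by 1.449. It was lower in EV at FER1L5 (-2.471), DRAIC (-2.329), CD68 (-1.898) and ENOSF1 (-1.397). The medium and the batch structure of the series share the EV libraries in both tests, and no cause was tested.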

How the results depend on the processing

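The count of 8375 genes stayed within 1.5 times under 16 of the 17 alternatives, at 6677 to 10275. The exception was a test against a fold of 1.5, which called 549 genes, 277 higher and 272 lower. DESeq2 called 7251, of which 7143 were among the 8375 and went the same way. Leaving out each library in turn gave 6677 to 8259 calls in EV, 5917 to 9055 in WT and 7145 to 8131 in MUT, and 3692 to 5048 calls for EV minus WT and 7097 to 7807 for EV minus MUT. With the replicate block, 8166 genes were called in EV (7894 of the 8375 in the same direction), 7472 in WT and 9123 in MUT. No pairing by replicate number was seen, and the labels state none. The deviations of same-numbered EV libraries correlated at -0.07, 0.04 and 0.01, and 1 of 6 libraries correlated best with its own number. With 3 libraries per batch, these correlations cannot exclude a weak pairing. The block changed none of these 3 counts by over 1.5 times, and the tests of one medium against another were not run with it. With offsets for GC content and length, chosen after seeing the data, 9247 genes were called, 7594 of the 8375 kept their call and direction, and 24 turned. Of 2973 values of 175 named genes over all alternatives, 2863 kept direction and side of the threshold, 99 lost the threshold (90 of them against a fold of 1.5), 11 gained it and 0 turned. CPA1, MAFA (adjusted p = 0.0768 with the offsets), SST and FER1L5 (adjusted p = 0.0847 and 0.342 with all 29 libraries in 1 fit) and SPINK1 (adjusted p = 0.061 without batch 2 replicate 3) were the others that lost it. Of the medians of 49 gene lists, 105 values over all alternatives moved by more than 1 SD between replicates, 23 of them with the offsets, 13 without batch 3 replicate 1 and 12 each with the stricter filter and without batch 2 replicate 2. INS (adjusted p = 0.0365) and ABCC8 (adjusted p = 0.000451) were among those that gained it, both with the offsets. Depth limits genes under about 1 CPM, whose few counts give wide errors.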

Other observations

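The EV libraries of batch 1 (3 libraries) enter no comparison here, and their levels lay on either side of the others. TXNIP was at 36.3 to 39.5 CPM in batch 1, between the levels of batch 3 and batch 2. IAPP, at 5.58 to 6.31 CPM, and SST, at 14.2 to 16.4 CPM, were below both. MKI67 was at 125 to 164 CPM and CPT1A at 35.2 to 37.5 CPM, above both. Mitochondrially encoded transcripts took 7.08 to 8.28% of counts in batch 1, against 4.29 to 4.64% in batch 3 and 4.80 to 5.25% in batch 2.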
